A study of Mus musculus with 4 samples.

Results

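The respiratory chain genes of the nuclear genome were examined at their promoters in mouse embryonic stem cells, complex by complex. Members were the protein-coding genes of GENCODE vM1 (mm9 coordinates) whose symbols start with Nduf (complex I), Uqcr (complex III) or Atp5 (complex V), or with Cox followed by 4 to 8 (complex IV), together with Sdha, Sdhb, Sdhc and Sdhd (complex II) and Cyc1 (complex III). This gave 93 of 22367 protein-coding genes, under 92 symbols because Ndufb8 has 2 entries, of which 43 fell to complex I, 4 to complex II, 9 to complex III, 19 to complex IV and 18 to complex V. Not all of them are subunits. Ndufaf1, Ndufaf2, Ndufaf3 and Ndufaf4 are assembly factors, Cox7a2l acts in joining complexes into supercomplexes, and Cox4nb, Atp5s, Atp5sl and Atp5l-ps1 are grouped by symbol alone.

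The chain passes electrons from NADH (complex I) or succinate (complex II) through ubiquinone, complex III and cytochrome c to oxygen at complex IV, and the proton gradient built on the way drives ATP synthesis by complex V. Most subunits are encoded in the nucleus and are made in nearly all cells, while several complex IV subunits also have isoforms used in muscle, lung or testis. Promoters of active genes carry histone H3 trimethylated at lysine 4 (H3K4me3), and Jarid1b, the product of Kdm5b, is an enzyme that removes methyl groups from that lysine.

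All libraries came from E14TG2a.4, a mouse embryonic stem cell line that grows without feeder cells and was kept in medium with serum and LIF. The H3K4me3 chromatin immunoprecipitation (ChIP-seq) was done once in cells transduced with a lentivirus carrying a short hairpin RNA (shRNA) against Jarid1b and selected with puromycin, and once in cells that received the LKO scramble vector. Antibody against Jarid1b gave 2 further libraries from cells labelled E14 ESCs, with no hairpin named. Each H3K4me3 condition is therefore 1 library, there is no replicate check between conditions, and every interval given for them covers counting error only. In bulk chromatin a lower read count in fewer cells and a lower mark in every cell cannot be told apart.

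After keeping 1 read per strand and position, the Jarid1b shRNA library held 2635705 reads and the scramble library 5158330, and the Jarid1b libraries held 4336767 (replicate 1) and 1602370 (replicate 2). The 2 Jarid1b libraries share fragments, with 16.8% of the plus-strand positions of replicate 2 also present in replicate 1 against 1.76% at other offsets, and at the 74 respiratory chain promoters that held 10 reads or more the difference between them was below sampling noise (chi-square per degree of freedom 0.863), so they were counted as 1 sample. Stem cell markers had H3K4me3 at 7 of 9 promoters in the Jarid1b shRNA library and 8 of 9 in the scramble library. Esrrb lacked it in both, with 0 reads in the Jarid1b shRNA library and 3 in the scramble library, and Zfp42 in the Jarid1b shRNA library only. The fibroblast list, for feeder cells, had H3K4me3 at 2 of 8 in each library, the muscle and heart list at 1 of 6 in each, and the neural list at 3 of 5 in each. Of all promoters 59.9% had it in the Jarid1b shRNA library and 60.0% in the scramble library, and the neural list was at that share. At the promoter of Kdm5b itself there were 155 reads in the Jarid1b shRNA library and 153 in the scramble library, a log2 ratio of 0.99 (0.66 to 1.32) in RPM, reads scaled to the total of the library. That value describes the mark at the gene and does not check the knockdown, since a hairpin acts on the transcript.

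Promoters were 2 kb windows centred on the transcription start site (TSS). A promoter was called enriched where its reads passed a one-sided Poisson test against a background rate, taken over the genome or over the 10 kb on each side, whichever was larger, at a Benjamini-Hochberg adjusted p of 0.05 over all 22367 promoters. Promoter sequences of some members are printed as examples. They run from 250 bases before to 50 after the TSS (mm9, reference assembly NCBIM37, 5′ to 3′ on the gene's strand). The first pair are the 2 isoforms of one complex IV subunit, Cox6a1, which is used in most tissues (chr5:115798941-115799240, minus strand), and Cox6a2, which is used in heart and skeletal muscle (chr7:135349831-135350130, minus strand). Capitals mark matches to the motif of NRF1 (GCGCA and GCGC with 1 base of any kind between them) and to the ETS motif (CCGGAAG, printed CTTCCGG where the match lies on the other strand). NRF1 and the ETS factor GABP are textbook regulators of respiratory chain genes. Of the 84 members compared below, 15 had an NRF1 match and 18 an ETS match, so the printed examples are not typical in this.
Cox6a1: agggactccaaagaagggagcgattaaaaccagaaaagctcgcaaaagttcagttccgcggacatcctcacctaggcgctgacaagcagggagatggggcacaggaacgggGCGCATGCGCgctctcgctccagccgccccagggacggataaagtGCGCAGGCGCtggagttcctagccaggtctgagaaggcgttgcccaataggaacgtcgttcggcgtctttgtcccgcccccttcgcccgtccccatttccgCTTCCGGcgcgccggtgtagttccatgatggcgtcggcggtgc
Cox6a2: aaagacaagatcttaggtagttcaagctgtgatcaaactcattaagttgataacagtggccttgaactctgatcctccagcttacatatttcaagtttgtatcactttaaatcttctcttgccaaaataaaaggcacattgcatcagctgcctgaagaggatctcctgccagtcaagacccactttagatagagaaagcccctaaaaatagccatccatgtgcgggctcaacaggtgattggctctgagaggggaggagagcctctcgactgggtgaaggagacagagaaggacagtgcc
Cox6a1 had 2 NRF1 matches and 1 ETS match and carried H3K4me3, whereas the Cox6a2 stretch had no match to either and carried none.

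The next pair were chosen for complexes II and III. Sdha (chr13:74487679-74487978, minus strand) encodes the flavoprotein of complex II that oxidizes succinate, and its stretch had 3 NRF1 matches. Uqcrh (chr4:115747627-115747926, minus strand) encodes the hinge protein of complex III, and had 1 ETS match, 9 bases before the TSS. It shares its promoter with Lrrc41 on the opposite strand, whose start lies 198 bases away.
Sdha: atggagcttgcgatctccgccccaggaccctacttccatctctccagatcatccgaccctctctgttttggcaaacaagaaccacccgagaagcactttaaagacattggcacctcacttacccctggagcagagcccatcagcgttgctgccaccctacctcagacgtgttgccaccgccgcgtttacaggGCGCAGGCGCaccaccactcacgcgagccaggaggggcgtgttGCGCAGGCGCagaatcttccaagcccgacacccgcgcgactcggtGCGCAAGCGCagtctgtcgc
Uqcrh: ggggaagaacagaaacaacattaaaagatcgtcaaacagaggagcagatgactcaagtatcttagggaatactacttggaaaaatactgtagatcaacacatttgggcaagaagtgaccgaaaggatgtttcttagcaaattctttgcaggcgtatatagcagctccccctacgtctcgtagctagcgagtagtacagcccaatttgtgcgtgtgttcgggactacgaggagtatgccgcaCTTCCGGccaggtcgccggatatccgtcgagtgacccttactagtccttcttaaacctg
The last pair also lie beside an opposite gene. Atp5h (chr11:115281227-115281526, minus strand), a peripheral stalk subunit of complex V, starts 164 bases from Kctd2. It was the one member with all 3 of an NRF1 match, an ETS match and a match to the YY1 motif (AAGATGGCG, printed CGCCATCTT on the other strand). Ndufa7 (chr17:33961286-33961585, plus strand), an accessory subunit of complex I, starts 29 bases from Rps28, a ribosomal protein gene on the opposite strand. In Ndufa7 the capitals mark the stretch from the start of Rps28 to its own start.
Atp5h: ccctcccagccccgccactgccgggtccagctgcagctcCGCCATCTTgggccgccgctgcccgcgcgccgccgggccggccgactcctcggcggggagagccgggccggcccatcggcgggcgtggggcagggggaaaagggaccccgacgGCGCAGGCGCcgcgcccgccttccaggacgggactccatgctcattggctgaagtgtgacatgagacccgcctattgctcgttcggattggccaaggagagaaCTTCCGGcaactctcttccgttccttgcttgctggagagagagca
Ndufa7: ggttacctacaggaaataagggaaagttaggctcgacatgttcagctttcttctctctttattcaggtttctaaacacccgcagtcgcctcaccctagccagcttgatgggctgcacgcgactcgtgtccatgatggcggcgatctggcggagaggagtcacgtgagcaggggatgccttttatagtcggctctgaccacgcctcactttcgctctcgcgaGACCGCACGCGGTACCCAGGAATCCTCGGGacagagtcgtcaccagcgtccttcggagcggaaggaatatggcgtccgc
Both H3K4me3 windows of this last gene pair hold nearly the same reads, so Ndufa7 and Rps28 were measured together.

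Respiratory chain promoters were marked with H3K4me3 more often than promoters in general. In the Jarid1b shRNA library 85 of 93 were enriched (91.4%), against 59.9% of all promoters, and in the scramble library 85 of 93 were enriched, against 60.0%. Among the 84 promoters with the mark in either library and at least 20 reads over both, the median level was 28.1 RPM in the Jarid1b shRNA library and 34.5 RPM in the scramble library. The same medians over all 13273 promoters compared were 23.9 RPM and 17.8 RPM. The members thus stood above the general level in both libraries, by a smaller margin in the Jarid1b shRNA library. Levels ran from 6.45 RPM to 74.7 RPM in the Jarid1b shRNA library and from 12.4 RPM to 71.5 RPM in the scramble library, and members high in one were mostly high in the other (Spearman's rho 0.70 across 84 genes, which share their libraries and are not replicates).

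The 8 promoters without the mark in either library (8.60%, against 38.1% of all promoters) were mostly those of tissue isoforms. Complex IV held 5 of them. Cox6a2 had 1 read in the Jarid1b shRNA library and 3 in the scramble library. Cox7a1, the muscle isoform of subunit 7a, had 7 and 16 reads in the same order of libraries. These compare with 107 reads in the Jarid1b shRNA library and 183 in the scramble library for the general isoform Cox6a1, and with 45 and 142 for Cox7a2, so the general and the muscle isoforms were far apart in both libraries. Cox8b, a muscle isoform that mice have and humans lost, had 1 read in the Jarid1b shRNA library and 5 in the scramble library. Cox8c, a testis isoform, had 5 and 7. Their general paralog Cox8a had 87 reads in the Jarid1b shRNA library and 170 in the scramble library, at 33.0 RPM in each.

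Cox7b2 had 1 read in the Jarid1b shRNA library and 2 in the scramble library, against 17 and 94 for its general paralog Cox7b. Cox4i2, the lung isoform of subunit 4, passed the enrichment test with 7 reads in the Jarid1b shRNA library and 12 in the scramble library, too few for the ratio. Its general paralog Cox4i1 had 188 reads in the Jarid1b shRNA library and 239 in the scramble library. The exception was Cox6b2, described as the testis isoform of subunit 6b. It had 64 reads in the Jarid1b shRNA library (24.3 RPM) and 157 in the scramble library (30.4 RPM), against 40 reads (15.2 RPM) and 106 reads (20.5 RPM) for the general isoform Cox6b1. Among these isoforms it alone carried a level like that of the general subunits.

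**Figure D1:**
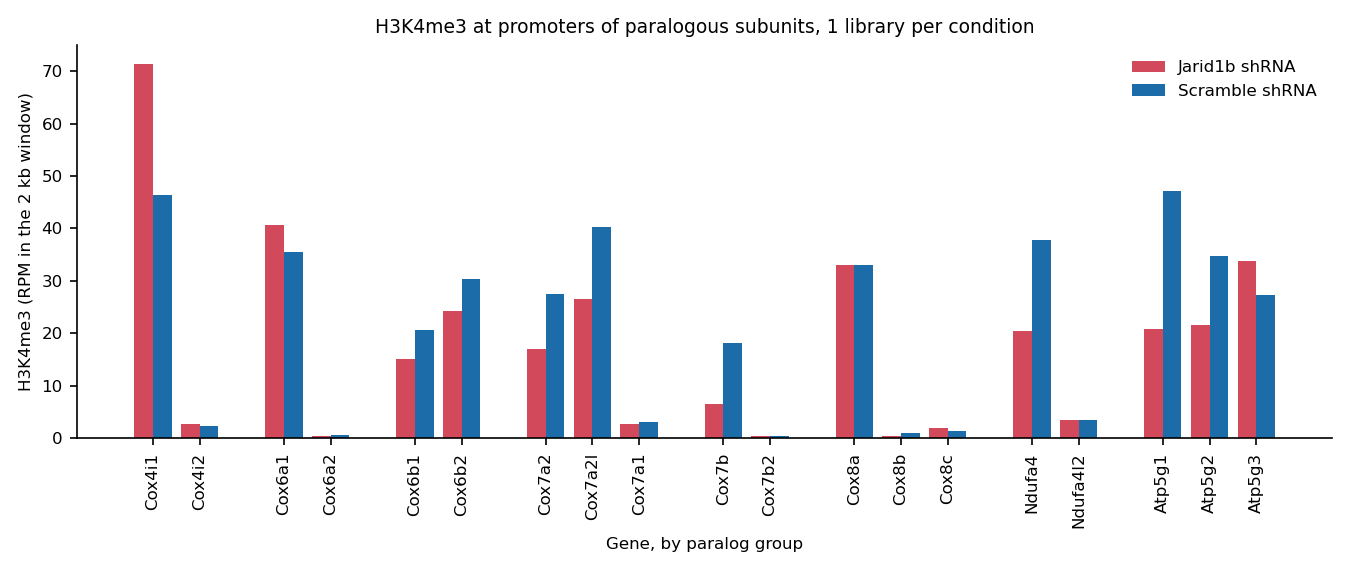
H3K4me3 at promoters of paralogous subunits, in RPM within the 2 kb window (vertical axis), with the Jarid1b shRNA library as red bars and the scramble library as blue bars, 1 library each. Cox6a2, Cox7a1, Cox7b2, Cox8b, Cox8c, Cox4i2 and Ndufa4l2 lie near 0 in both libraries, whereas Cox6b2 stands at 24.3 RPM and 30.4 RPM.

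The other promoters without the mark were Ndufa4l2, a paralog of Ndufa4, with 9 reads in the Jarid1b shRNA library and 18 in the scramble library, the pseudogene-named Atp5l-ps1 with 1 and 6, and one entry of Ndufb8 (ENSMUSG00000091471.1) with 1 and 6. The other Ndufb8 entry (ENSMUSG00000025204.4), 2609 bases away, had 84 reads in the Jarid1b shRNA library and 191 in the scramble library, so the subunit's own start was marked. None of the 9 promoters outside the comparison had an NRF1, ETS or YY1 match. At least 1 of these was at 35 of the 84 members compared and at 16.9% of all promoters. The share among all promoters outside the comparison was not computed, so the absence cannot be read as a trait of the 9.

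Between the conditions, respiratory chain promoters had lower ratios than most promoters. The comparison asks what happened to the mark at these genes when the enzyme that removes it was targeted. A promoter was called higher or lower where the ratio of the Jarid1b shRNA library to the scramble library was at least 2-fold and its 95% interval (Clopper-Pearson, conditional on the summed reads) excluded a log2 ratio of 0. Of the 84 members, 0 were called higher, against 24.0% of all promoters compared, and 4 were called lower (4.76%), against 2.37%. The log2 ratio was below 0 at 61 members (72.6%), against 30.5% of all promoters, and below the median of all promoters at 78 of 84 (92.9%), against 50.0%. Its interval lay wholly below 0 at 24 members (28.6%), against 11.2%, and wholly above 0 at 8 (9.52%), against 43.7%. The members' median log2 ratio was −0.22 and that of all promoters 0.41. In total the members held 6781 reads in the Jarid1b shRNA library and 15049 in the scramble library, a log2 ratio of RPM of −0.18 (−0.22 to −0.14), against 0.36 over all promoters compared.

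Where 0 lies depends on the scaling. Scaled to reads in background bins far from any TSS, the median log2 ratio was 0.027 for the members and 0.66 for all promoters, with 3 members called lower (Ndufa7, Cox7b and Atp5sl) and 1 higher (Atp5d), against 115 lower and 4524 higher of 13273 promoters. Scaled to the median of all promoters compared, it was −0.63 for the members and 0 for all, with 15 members called lower and 0 higher. Over all promoters the calls were then 1596 higher and 1193 lower, against 3185 higher and 315 lower on library totals. Members therefore read as lower or as unmoved according to that choice, while their distance from the general median is by construction the same under each scaling.

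GC content moved with the ratio. The 2 kb windows of the members had 51.0% GC at the median, against 54.6% for all promoters compared, and across promoters the ratio followed GC content (Spearman's rho 0.39 over the 84 members, 0.63 over all 13273, which share 2 libraries). Background bins showed a slope of the same sign, with a log2 ratio of −0.65 in the class of lowest GC content and 0.41 in bins of 53% to 56%. Within bands of equal GC content the members' median was the lower one in 4 of 5 bands. It was −0.23 for 37 members and 0.17 for all promoters at 50% to 55%, 0.25 for 8 members and 0.65 for all at 55% to 60%, and 0.27 for 4 members and 1.18 for all over 60%. At 45% to 50% the members' median was −0.32 (32 members), close to the −0.25 of all promoters. At up to 45% the 3 members had a median of −0.39 and all promoters −0.65. Relative to the median of their own class among 20 classes of GC content, 66 of 84 members (78.6%) were below, against 49.9% of all promoters, and the members' median was −0.26.

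**Figure D2:**
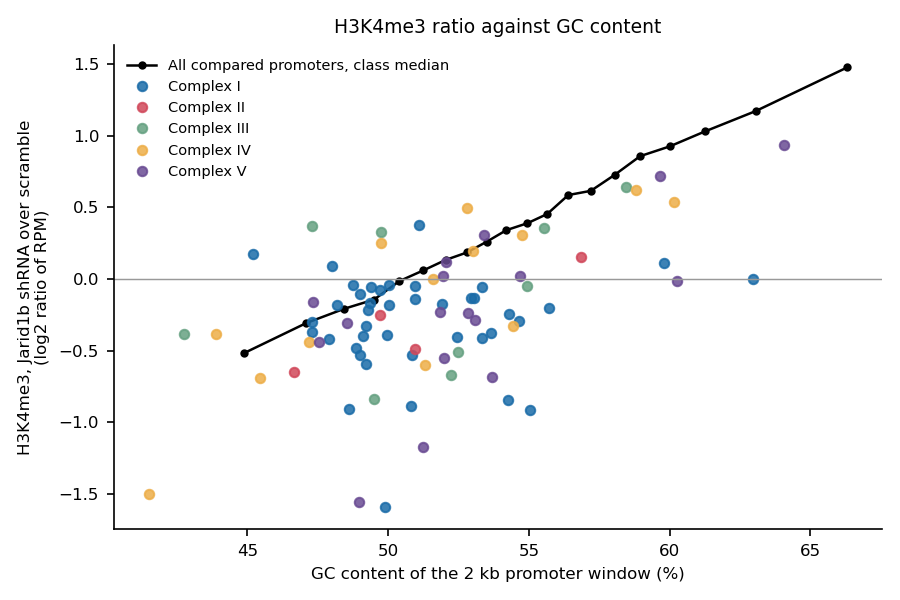
Log2 ratio of H3K4me3 RPM, Jarid1b shRNA over scramble (vertical axis), against GC content of the 2 kb window in percent (horizontal axis), for 84 respiratory chain promoters coloured by complex, with the medians of all compared promoters in 20 GC classes as a black line. Of the coloured points, 66 lie below the median of their class.

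Relative to promoters of like mean H3K4me3 level, a comparison chosen after seeing the data, the members' median was −0.57. This is close to the −0.63 found relative to the median of all promoters compared. Of the stem cell marker promoters, 3 of 8 compared were called lower (Nanog, Zfp42 and Tdgf1, at −1.23, −1.43 and −1.17) and 0 higher. Pou5f1 and Dppa4 were at −0.70 and −0.90, and Klf4, Utf1 and Sox2 above 0, at 0.69 (0.35 to 1.03), 0.33 (0.014 to 0.64) and 0.23 (−0.081 to 0.53). There were 689 reads over the 8 in the Jarid1b shRNA library and 1672 in the scramble library. Their part in the members' ratio was not tested.

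The complexes differed in their medians, with complexes I, II and V below 0 and complexes III and IV close to it, an arrangement that background bin scaling moves up to leave complex II alone below 0 (−0.12). The median log2 ratio was −0.22 in complex I (41 promoters), −0.37 in complex II (4), −0.05 in complex III (9), 0.00 in complex IV (13) and −0.23 in complex V (17). All 5 lay below the general median of 0.41. From summed reads the ratio was −0.32 (−0.39 to −0.26) in complex I, −0.35 (−0.55 to −0.16) in complex II, −0.03 (−0.15 to 0.08) in complex III, 0.09 (−0.02 to 0.19) in complex IV and −0.12 (−0.21 to −0.03) in complex V. The windows of Cox4i1 and Cox4nb, which start 178 bases apart, overlap, so many reads enter the complex IV sum more than once. Cox4nb, grouped by symbol alone, stood at 0.53 (0.26 to 0.81), and its part in that sum was not taken out. By counting error alone the intervals of complexes I and II overlapped each other, and that of complex I lay below those of III, IV and V. With 1 library per condition and genes that are not replicates of a complex, no test of these differences was made. The order was not stable: in windows of 500 bases on each side of the TSS complex III had the lowest median (−0.42) and complex IV the highest (0.31).

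**Figure D3:**
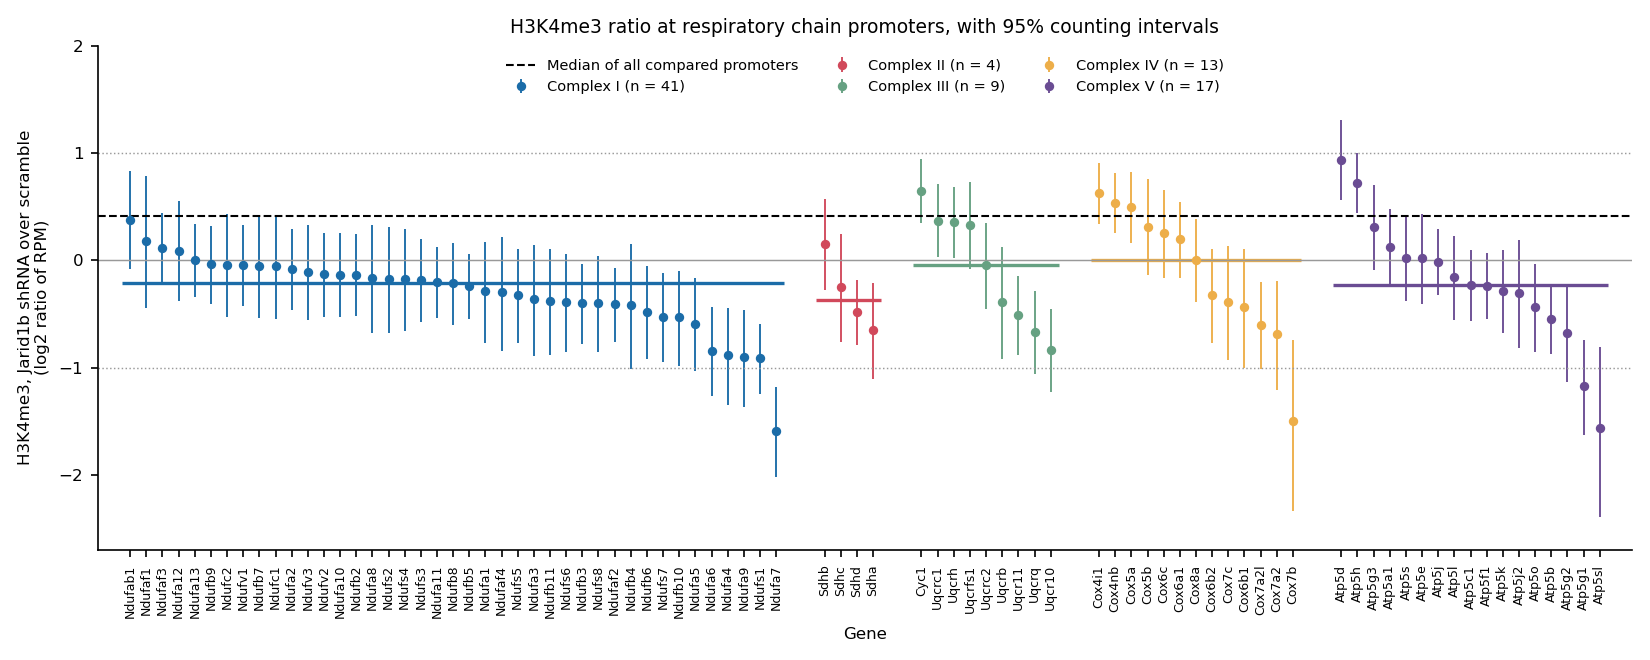
Log2 ratio of H3K4me3 RPM, Jarid1b shRNA over scramble (vertical axis), for the 84 respiratory chain promoters compared (horizontal axis), grouped by complex and ordered by ratio, with 95% counting intervals as thin lines, complex medians as coloured lines and the median of all compared promoters (0.41) as a dashed line. Ndufa7, Cox7b, Atp5g1 and Atp5sl lie below the dotted line at −1 and 0 lie above the dotted line at 1.

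Complex I, which takes electrons from NADH, had nearly all its ratios on one side, with 36 of 41 below 0 on library totals and an interval wholly above 0 at none of them. The 7 core subunits, which bind the flavin and the iron-sulphur clusters, were all below 0. Ndufs1, the largest of them, had 100 reads in the Jarid1b shRNA library and 369 in the scramble library, a log2 ratio of −0.91 (−1.25 to −0.59). Ndufv1, which holds the flavin, had 89 and 180 reads in the same order, a ratio of −0.05 (−0.43 to 0.33). These were the ends of the core group, and their intervals did not overlap. Of the 30 promoters compared that were counted as accessory subunits of complex I by symbol, Ndufa4 (−0.88) among them, 27 were below 0. Whether each product works in that complex was not checked. Ndufa7 was lowest, with 57 reads (21.6 RPM) in the Jarid1b shRNA library and 336 (65.1 RPM) in the scramble library, a log2 ratio of −1.59 (−2.02 to −1.18). The highest was Ndufab1, the mitochondrial acyl carrier protein, with 69 reads in the Jarid1b shRNA library and 104 in the scramble library and a ratio of 0.38 (−0.08 to 0.83). The 4 assembly factors spanned −0.41 (Ndufaf2) to 0.18 (Ndufaf1).

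The window of Rps28 gave 57 reads in the Jarid1b shRNA library and 339 in the scramble library, so the low ratio at Ndufa7 is a value of the shared promoter. It was low on each side. Upstream of the Ndufa7 start, towards Rps28, there were 35 reads in the Jarid1b shRNA library and 244 in the scramble library (log2 ratio −1.83, −2.39 to −1.32). Downstream, in Ndufa7, there were 22 and 92 in the same order (−1.10, −1.84 to −0.41).

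Complex II, the succinate dehydrogenase that joins the citric acid cycle to the chain, had 3 of 4 promoters below 0. Sdha had 58 reads (22.0 RPM) in the Jarid1b shRNA library and 178 (34.5 RPM) in the scramble library, a log2 ratio of −0.65 (−1.10 to −0.21). Sdhd, one of the membrane anchors, had 126 reads (47.8 RPM) and 345 reads (66.9 RPM) in the same order, a ratio of −0.48 (−0.79 to −0.19). The other anchor, Sdhc, had 49 and 114 reads (−0.25, −0.76 to 0.25). Sdhb, the iron-sulphur subunit, had 75 reads in the Jarid1b shRNA library and 132 in the scramble library (0.15, −0.28 to 0.57). On library totals Sdha and Sdhd were lower by more than counting error, Sdhb and Sdhc were not, and none reached the 2-fold needed for a call. Background bins stood at a log2 ratio of −0.25, and scaled to them the intervals of Sdha and Sdhd include 0. Sdhb is also the one of the 4 with no other TSS within 1 kb.

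Complex III, which hands electrons to cytochrome c, was not uniform. The redox subunits of nuclear origin, cytochrome c1 and the Rieske protein, were above 0. Cyc1 had 167 reads (63.4 RPM) in the Jarid1b shRNA library and 209 (40.5 RPM) in the scramble library, a log2 ratio of 0.65 (0.34 to 0.95), the highest of the complex. Uqcrfs1, the Rieske protein, had 86 and 134 reads (0.33, −0.08 to 0.73). Summed, the pair stood at 0.53 (0.29 to 0.77), still near the general median of promoters. The 7 other subunits had a median of −0.38, although Uqcrc1 (0.37, 0.03 to 0.71) and Uqcrh (0.35, 0.02 to 0.68) were also above 0. The lowest was the small subunit Uqcr10, with 74 reads (28.1 RPM) in the Jarid1b shRNA library and 258 (50.0 RPM) in the scramble library, a ratio of −0.83 (−1.23 to −0.45).

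In complex IV, cytochrome c oxidase, 6 of 13 promoters were below 0. Its highest and lowest promoters were both those of subunits used in most tissues. Cox4i1, which starts 178 bases from Cox4nb on the opposite strand, had 188 reads (71.3 RPM) in the Jarid1b shRNA library and 239 (46.3 RPM) in the scramble library, a log2 ratio of 0.62 (0.34 to 0.90). Cox5a, another subunit of the enzyme, had 134 and 186 reads (0.50, 0.16 to 0.82). Cox7b, on the X chromosome, had 17 reads (6.45 RPM) and 94 reads (18.2 RPM) in the same order and was called lower (−1.50, −2.34 to −0.74). It also had the lowest GC content of the members compared, 41.5%. Relative to its GC class Cox7b was at −0.98, just short of the 2-fold line, and was no longer called, whereas Ndufa7, Atp5g1 and Atp5sl were. With the GC trend of background bins removed it was at −1.15 and still called. The other X-linked members, Ndufa1 and Ndufb11, had ratios of −0.29 and −0.38, and promoters of the X chromosome had a median of −0.12. Of the remaining paralogs, Cox7a2 had a ratio of −0.69 (−1.21 to −0.20), Cox7a2l −0.60 (−1.01 to −0.21), Cox6b1 −0.44 (−1.0 to 0.10), Cox6b2 −0.33 (−0.77 to 0.10), Cox8a 0.00 (−0.39 to 0.38) and Cox6a1 0.19 (−0.16 to 0.55).

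Complex V, the ATP synthase, held 2 of the promoters called lower. The clearest contrast was between the 3 genes Atp5g1, Atp5g2 and Atp5g3, which encode the same mature c subunit of the rotor ring with different import signals. Atp5g1 had 55 reads (20.9 RPM) in the Jarid1b shRNA library and 243 (47.1 RPM) in the scramble library and was called lower (log2 ratio −1.17, −1.62 to −0.75). Atp5g2 had 57 reads (21.6 RPM) and 179 reads (34.7 RPM) in the same order (−0.68, −1.14 to −0.24). Atp5g3 had 89 reads (33.8 RPM) in the Jarid1b shRNA library and 141 (27.3 RPM) in the scramble library (0.30, −0.09 to 0.70). Their order of level turned round with the condition: Atp5g3 was the most marked of the 3 in the Jarid1b shRNA library and the least marked in the scramble library, although Atp5g1 and Atp5g2 did not differ beyond counting error in the Jarid1b shRNA library. The intervals of Atp5g1 and Atp5g3 did not overlap.

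Atp5sl, grouped by symbol only, had 17 reads in the Jarid1b shRNA library and 98 in the scramble library and was called lower (−1.56, −2.40 to −0.81). The catalytic F1 subunit Atp5b had 115 and 330 reads in the same order (−0.55, −0.87 to −0.24). Atp5a1, the other large subunit of the F1 head, had 105 and 189 reads (0.12, −0.24 to 0.47). On library totals Atp5b was thus lower by more than counting error and Atp5a1 was not. Scaled to background bins, the interval of Atp5b reaches just past 0. Atp5d had the highest ratio of all members, 121 reads in the Jarid1b shRNA library and 124 in the scramble library (0.93, 0.56 to 1.31). Of the starts of its protein-coding transcripts, the one with the most H3K4me3 reads lies 3683 bases from this gene-level TSS and had fewer reads, 74 and 123 in the same order, with a ratio of 0.24 (−0.20 to 0.66). Its rank as the highest therefore depends on the start used.

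Many respiratory chain genes share their promoter. A TSS of another gene lay within 1 kb at 34 of 93 members (36.6%), against 16.8% of all promoters, and a protein-coding gene on the opposite strand at 30 (32.3%), against 10.8%. All 34 had H3K4me3 in both libraries, against 51 of the 59 members without a neighbour. Of all promoters, 59.9% had it in the Jarid1b shRNA library and 60.0% in the scramble library. The share among all promoters with a neighbour was not computed, so the 34 cannot be read as a trait of the members. The median ratio of the 34 was −0.25, against −0.17 for the 50 compared members without such a neighbour. A window then holds the mark of both genes, so the reads upstream and downstream of the TSS were taken apart where each side had at least 20 reads. The intervals of the 2 sides did not overlap at 7 of 57 members (12.3%), against 14.2% of all promoters. This share is close to the background, and the 7 are given because their whole-window ratio hides a difference.

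At Uqcrh the side towards Lrrc41 had 108 reads in the Jarid1b shRNA library and 76 in the scramble library, a log2 ratio of 1.48 (1.04 to 1.92). The side of the gene itself had 22 reads in the Jarid1b shRNA library and 123 in the scramble library, a ratio of −1.51 (−2.24 to −0.85). The whole window, at 0.35 (0.02 to 0.68), showed neither. Atp5h was alike, with 150 reads in the Jarid1b shRNA library and 113 in the scramble library on the side of Kctd2 (1.38, 1.02 to 1.74), and 47 and 121 on its own side (−0.40, −0.91 to 0.10). Its whole-window ratio of 0.72 (0.44 to 1.0), the second highest of complex V, lay between those of the 2 sides. That ratio was above 0 although its own side was not. At Ndufb3 the side towards Fam126b was at 0.14 (−0.33 to 0.61) and its own side at −1.22 (−1.91 to −0.59).

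The order was opposite at Atp5j, which overlaps Gabpa, the gene of the DNA-binding GABP subunit, head to head. The start of Gabpa lies 700 bases downstream of that of Atp5j, so the downstream side holds both starts. Upstream there were 42 reads in the Jarid1b shRNA library and 134 in the scramble library (−0.71, −1.24 to −0.20), and downstream 90 and 127 (0.47, 0.07 to 0.87). Atp5f1 overlaps Wdr77 in the same way, with the starts 730 bases apart, and was at −1.13 (−1.84 to −0.48) upstream and 0.08 (−0.27 to 0.44) downstream. Cox5a and Atp5g3, with no neighbour, were also lower upstream, at −0.51 (−1.37 to 0.30) and −2.42 (−5.56 to −0.39), than downstream, at 0.74 (0.37 to 1.11) and 0.50 (0.09 to 0.91). With the downstream 1 kb alone, a choice made after seeing the data, 8 members were called lower and 1 higher, against 427 lower and 3440 higher of 12648 promoters. The added ones were Ndufa4, Ndufb3, Ndufs1 and Uqcrh below and Atp5d above.

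**Figure D4:**
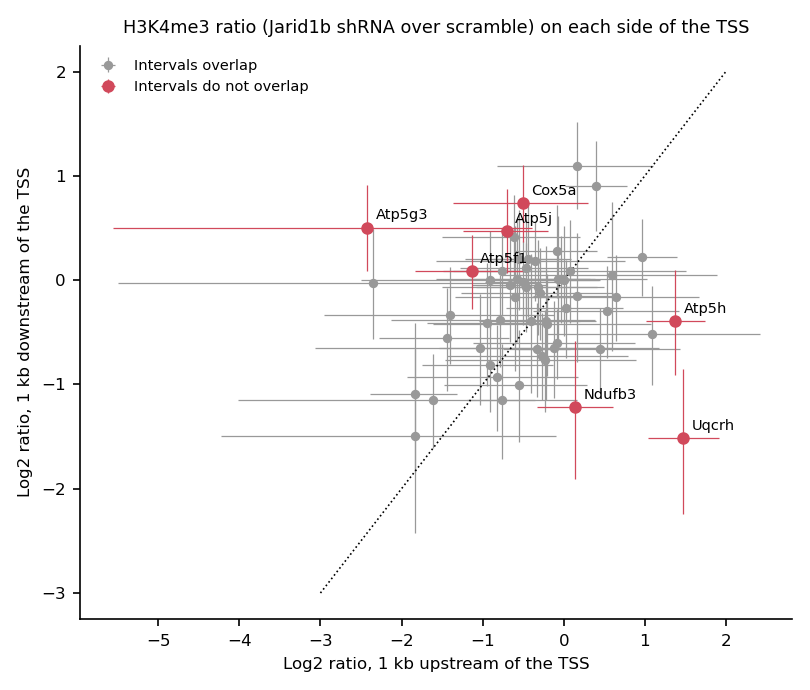
Log2 ratio of H3K4me3 RPM, Jarid1b shRNA over scramble, in the 1 kb downstream (vertical axis) against the 1 kb upstream of the TSS (horizontal axis) at 57 respiratory chain promoters with at least 20 reads on each side, with 95% counting intervals and the line of equal ratios dotted. The 7 promoters in red have intervals that do not overlap, and Uqcrh lies farthest to the lower right at 1.48 upstream and −1.51 downstream.

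Around the TSS the members had the usual form of H3K4me3, with a dip at the start and the peak downstream of it. The density peaked in the bin centred 150 bases after the TSS in both libraries, at 4.64 RPM per promoter and 100 bases in the Jarid1b shRNA library and 4.20 in the scramble library. At the other promoters compared the peak was in the same bin, at 3.60 and 2.28. The median read position within the window was 234 bases after the TSS at the median member in the Jarid1b shRNA library and 295 in the scramble library, against 223 and 243 over all promoters compared. The width that held the middle 80% of reads within 3 kb of the TSS was alike in both libraries at the members, 1088 bases in the Jarid1b shRNA library and 1089 in the scramble library, against 1109 and 1324 over all promoters compared. The 2 libraries differed in read length and depth, and the part of this in the shapes was not tested.

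**Figure D5:**
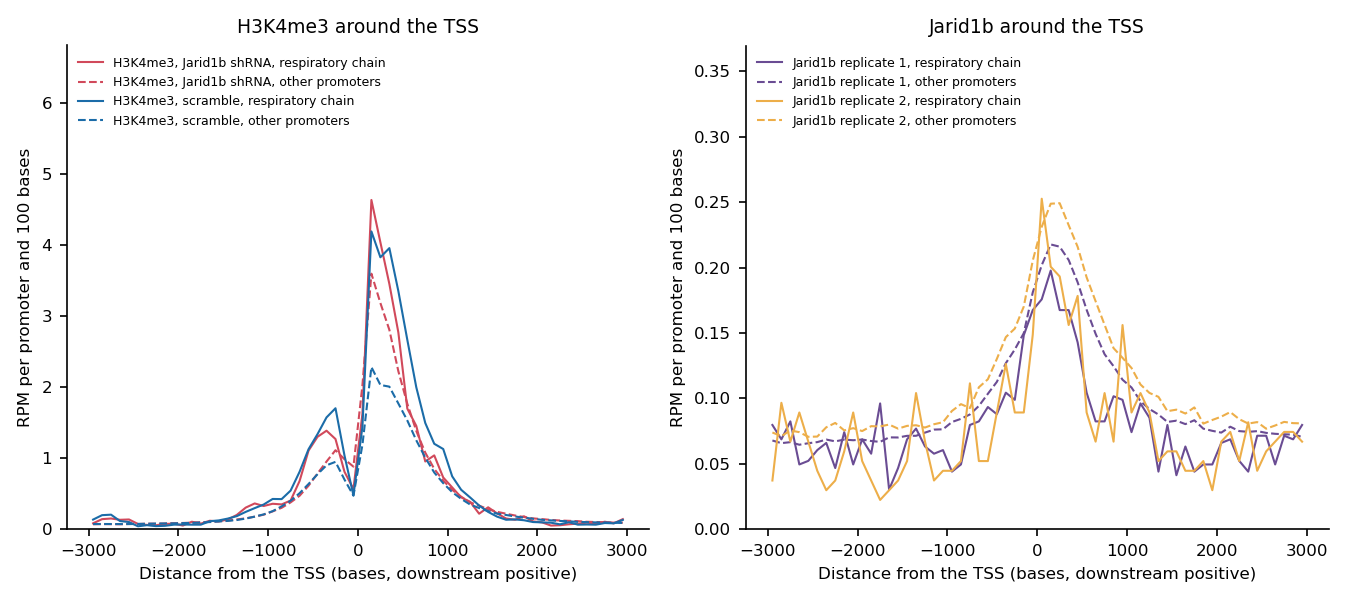
Read density around the TSS in RPM per promoter and 100 bases (vertical axes) against distance from the TSS in bases (horizontal axes), for H3K4me3 (left) and Jarid1b (right), with 84 respiratory chain promoters as solid lines and the 13189 other compared promoters as dashed lines. At the members the H3K4me3 peak is at 4.64 in the Jarid1b shRNA library and 4.20 in the scramble library, and at the other promoters at 3.60 and 2.28.

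Jarid1b itself was measured with few reads, a median of 9 per member in replicate 1 and 3 in replicate 2. In both libraries 2 of 93 members passed (2.15%), against 7.98% of all promoters. In replicate 1 alone 22 passed (23.7%), against 26.8%, and in replicate 2 alone 6 (6.45%), against 10.7%. Compared promoters of the members had a median enrichment of 1.77-fold in replicate 1 and 1.63-fold in replicate 2, against 2.05-fold and 2.08-fold for all promoters compared. The members thus lay somewhat below promoters with H3K4me3 in general. Their GC content was lower too, and its part in this was not tested.

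Cox5a was one of the 2 promoters that passed in both, with 17 reads in replicate 1 (3.09-fold, 95% Poisson interval 1.80 to 4.95) and 7 in replicate 2 (5.59-fold, 2.25 to 11.5). Its adjusted p in the enrichment test was 0.00068 in replicate 1 and 0.0066 in replicate 2. The other was the marked entry of Ndufb8, an accessory subunit of complex I, with 13 reads (2.10-fold, adjusted p 0.044) and 7 reads (3.68-fold, adjusted p 0.034), close to the threshold in both. The highest enrichment in replicate 1 was at Uqcrc2, with 18 reads (5.31-fold), which had 5 reads in replicate 2 (3.99-fold) and did not pass there. Complex II promoters had 3 calls of 4 in replicate 1 and Sdhd in replicate 2, so that all 4 passed when the reads were pooled, where 27 of 93 members did, against 7633 of all 22367 promoters. Calls at this depth moved with most choices. With no shift of the reads 0 members passed in both, against 1743 of all 22367 promoters. With a GC-adjusted background 0 did, against 128 of all, and at an adjusted p of 0.001 0 did, against 312 of all. Few promoters of any kind passed under the last 2 settings. With windows of 500 bases on each side 8 members passed (1304 of all), and against the genome rate alone 23 (5535 of all). No relation of Jarid1b to the H3K4me3 ratio can be read from these calls.

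Sequence motifs were searched on both strands of the stretch from 250 bases before to 50 after the TSS. The NRF1 motif was found at 15 of the 84 members compared (17.9%), against 9.80% of all promoters compared. The ETS motif was found at 18 (21.4%), against 16.7%, and the YY1 motif at 6 (7.14%), against 2.84%. At least one of the 3 was at 35 members (41.7%), against 26.4%. The GC box GGGCGG went the other way, at 40 members (47.6%) against 65.9%. No match of one motif overlapped one of another. At 5 of the 6 members with the YY1 motif it began 25 to 35 bases after the TSS, and Atp5h, printed above, was the one where it lay upstream.

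By complex the motif counts were small, and differences between complexes were not tested. Over all promoters compared the shares were 9.80% for NRF1, 16.7% for ETS and 2.84% for YY1, and several complexes lay near them. NRF1 matches were at 7 of 41 complex I, 2 of 4 complex II, 1 of 9 complex III, 1 of 13 complex IV and 4 of 17 complex V promoters. ETS matches were at 6, 1, 3, 5 and 3 of them in the same order of complexes, and YY1 matches at 4 in complex I and 2 in complex V. Members with the NRF1 motif had a median log2 ratio of −0.30, against −0.18 for those without, and members with the ETS motif −0.10, against −0.23. With GC class medians removed the order for NRF1 turned round, at −0.21 with the motif and −0.27 without, and that for ETS stayed, at −0.22 with it and −0.31 without. A match describes these letters and does not show that the factor binds.

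On library totals, genes next to the chain in function had higher medians than its members. Over all promoters compared 2.37% were called lower and 24.0% higher, the background for each list below. Of 29 other assembly factors, all compared, 0 were called lower and 1 higher, with a median log2 ratio of 0.04. That one was Nubpl, an iron-sulphur assembly factor of complex I (1.30, 0.58 to 2.03). Of 18 genes of the citric acid cycle 0 were lower and 2 higher, with a median of 0.33. Idh2, mitochondrial isocitrate dehydrogenase, had 142 reads in the Jarid1b shRNA library and 129 in the scramble library (1.11, 0.75 to 1.46), and Suclg2 had 81 and 71 (1.16, 0.68 to 1.64). Of 15 genes of ubiquinone synthesis and cytochrome c, 14 were compared, with 0 lower, 2 higher (Coq2 and Coq10b) and a median of −0.13. Of 16 regulators of respiratory chain genes 14 were compared, with 0 lower, 1 higher and a median of 0.26. The 1 was Yy1 (1.12, 0.84 to 1.41). On library totals these medians lie between that of the members and the general median, and no test between the lists was made. With GC class medians removed, where all promoters are at 0 and the members at −0.26, the order was another: the regulators were at −0.36, below the members, and ubiquinone synthesis and cytochrome c at 0.085, above the general median. The assembly factors were then at −0.15 and the citric acid cycle at −0.037. With the GC trend of background bins removed the regulators were at −0.50 and the members at −0.39.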

How the data were processed

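ChIP-seq reads of 4 libraries were analysed. In the deposited files every aligned read has its own row of coordinates and strand, and the authors' score column was 0 throughout and was not used. Alignment was to mm9 with Bowtie per the labels' protocols, and the submitters' notes give no version. The protocols also describe removing repeated positions, MACS peaks and an IgG control, but the deposited rows still repeat positions (7.56% of rows for Jarid1b shRNA H3K4me3, 31.5% for scramble H3K4me3), so repeats had not been removed from these rows. An IgG library was not analysed here.

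For each autosome and sex chromosome, reads with the same strand and 5′ position were counted once and shifted 75 bases towards the fragment centre. All protein-coding genes of GENCODE vM1 were tested, and only members are printed. Enrichment used the Poisson test and background described in the report, computed with Python 3.11.15, numpy 2.4.6, pandas 2.3.3 and scipy 1.17.1. The scripts were tested on simulated data. Alternatives were other windows, starts, backgrounds, scalings, thresholds and sets of members.

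Genes named are the paralog groups, the Sdh genes, those called, those without the mark and the ends of each complex. Other names were chosen after their values were seen. The members, lists and motifs were chosen with earlier results of these data known. Roles of subunits are textbook knowledge. All 106 symbols of the other lists were matched. No protein sequence was used.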

Additional observations from a re-analysis of the deposited data

How the results depend on the processing

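Each result was recomputed under the alternatives, with all promoters refitted each time. No paired analysis was possible because each H3K4me3 condition has 1 library, so the conditions share fewer than 2 replicate numbers.

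H3K4me3 was found at 84 to 87 of 93 members in either library where the set of members was kept, at 77 among the 84 subunits proper, and at 51 in each library among the 59 without a neighbouring TSS. The members' median log2 ratio of −0.22 became −0.14 with windows of 500 bases on each side, −0.11 with all deposited rows, −0.17 without neighbouring TSSs, −0.63 with median scaling, 0.027 with background bin scaling, −0.39 with the GC trend of background bins removed and −0.57 with level class medians removed. The general median moved too: it was 0.41 on library totals, −0.031 with the GC trend of background bins removed, and 0 with median scaling and with GC class or level class medians removed, where GC classes put the members at −0.26.

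Complex medians moved as follows. With windows of 500 bases on each side they were −0.15 (I), −0.15 (II), −0.42 (III), 0.31 (IV) and 0.025 (V). With 2 kb on each side complex IV was at 0.13, and with all deposited rows complex IV was at 0.22 and complex V at −0.11. Without neighbouring TSSs complex II, then Sdhb alone, was at 0.15, complex III at 0.33 and complex IV at −0.33. With median scaling they were −0.63 (I), −0.78 (II), −0.46 (III), −0.41 (IV) and −0.64 (V), and with background bin scaling 0.034, −0.12, 0.20, 0.25 and 0.019. With GC class medians removed complex I was at −0.31, IV at −0.13 and V at −0.37, and with the GC trend of background bins removed they were at −0.39, −0.22 and −0.42. With level class medians removed, chosen after seeing the data, the 5 were at −0.60, −0.69, −0.39, −0.30 and −0.48. In the downstream 1 kb alone, also chosen later, complex III was at −0.39. The cause of these moves was not tested.

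No member was called higher in the report, and 1 was with windows of 500 bases (Cox4i1), with all deposited rows, background bin scaling or the downstream 1 kb (Atp5d each time), and 4 at 1.5-fold. The 4 called lower became 15 at 1.5-fold, 15 with median scaling, 9 with the GC trend of background bins removed, 10 with level class medians removed and 8 in the downstream 1 kb. Among all promoters compared, 3185 were called higher and 315 lower in the report. These were 5079 and 1055 at 1.5-fold, 954 and 525 once the GC trend of background bins was removed, 1483 and 1217 with level class medians removed, and 1596 and 1193 with median scaling.

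Jarid1b calls in both libraries, 2 in the report, numbered 8 with windows of 500 bases, 4 with 2 kb, 1 with all deposited rows, 0 with no shift, 1 at the protein-coding transcript start with the most H3K4me3 reads, 23 against the genome rate only, 0 at an adjusted p of 0.001, 0 with a GC-adjusted background, 27 with pooled reads and 5 in the downstream 1 kb. Without one Jarid1b replicate they ranged from 6 to 22. Over all 22367 promoters the report had 1785 such calls. They numbered 1304 with windows of 500 bases, 1574 with 2 kb, 1960 with all deposited rows and 1743 with no shift. At the transcript start with the most H3K4me3 reads there were 2103, and against the genome rate only 5535. The other settings gave 312 at an adjusted p of 0.001, 128 with a GC-adjusted background, 7633 with pooled reads and 1363 in the downstream 1 kb.

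Of the results that answer a comparison, 64 values moved and 90 did not, a tally that does not measure stability because some values could not move. The 1.5-fold setting cannot change a median, and requiring at least 50 reads left all 84 members compared. Depth limits Jarid1b most, where single promoters rest on a few reads, and for H3K4me3 a promoter near the median had 74 reads in the Jarid1b shRNA library and 178 in the scramble library, which gives intervals such as the −0.60 to 0.16 of Ndufb8.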
